A study of Mus musculus with 6 samples.

Results

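The Frizzled receptors other than Frizzled4 were examined in endothelial cells of the mouse cerebellum that lacked Frizzled4 or were wild type. The members are the 9 genes Fzd1, Fzd2, Fzd3, Fzd5, Fzd6, Fzd7, Fzd8, Fzd9 and Fzd10, chosen as the Frizzled family without Fzd4. Every probe set that the platform annotation assigns to one of these symbols alone was taken, which gave 23 of the 45037 probe sets and 9 of the 18193 named genes. The 3 Fz4-/- and 3 wild-type preparations were captured at postnatal day 16 with anti-PECAM magnetic beads (PECAM is an adhesion molecule on endothelial cells), and each was hybridised to 1 Affymetrix 3' array. Both genotypes shared a mixed C57Bl6/129 strain background and mixed sex, and the labels name no Cre driver and no allele other than Fz4-/-. The labels do not say whether a preparation held 1 animal or several, so the tests measure only the spread between these preparations. All values are log2 RMA expression as deposited, differences are Fz4-/- minus wild type, and the small number of arrays limits the precision.

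Frizzled proteins are receptors that cross the membrane repeatedly and bind Wnt ligands through a cysteine-rich domain outside the cell. With the co-receptors Lrp5 and Lrp6 they recruit Dishevelled, which stabilises beta-catenin and turns on genes bound by Tcf and Lef factors, while without these co-receptors they also serve polarity and cytoskeletal pathways. By sequence the family falls into Fzd1, Fzd2 and Fzd7, into Fzd5 and Fzd8, into Fzd3 and Fzd6, and into Fzd4, Fzd9 and Fzd10. Frizzled4 is the member that binds Norrin and is known for its role in the blood vessels of the retina and cerebellum. The questions addressed here are which other Frizzled genes give a signal in wild-type cells and whether any of them differs when Frizzled4 is absent.

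Fzd4, the targeted gene, read 3.042, 4.034 and 3.996 in Fz4-/- replicates 1 to 3 against 10.80, 10.20 and 10.88 in wild-type replicates 1 to 3. It was low on every Fz4-/- array, so the arrays match their labels. Its brightest probe set fell by 6.94 on the log2 scale (SE 0.34, n = 3 each, limma adjusted p = 0.00965, and adjusted p = 0.127 with the replicate number as a block). The other 2 Fzd4 probe sets differed by -4.95 and -1.74, and the extent of the deletion is not stated in the sources used here. Of the measured endothelial markers, 14 of 14 lay above the off-tissue level defined below in wild type, where 47.7% of all named genes did. The mean of the list was 11.78 to 11.91 in Fz4-/- arrays against 11.64 to 11.70 in wild-type arrays. Passing that level does not single out endothelial cells, as the counts that follow show. The preparations were not free of other cells. Of the measured markers, 12 of 12 for pericytes and smooth muscle and 11 of 12 for fibroblasts and meninges also lay above that level in wild type. So did 9 of 12 for astrocytes and Bergmann glia and 9 of 12 for microglia and macrophages. The counts were 4 of 7 for Purkinje cells, 3 of 9 for oligodendrocytes, 2 of 11 for granule neurons and 1 of 4 for red cells. These are bulk samples, so fewer cells of a type and less RNA per cell cannot be told apart, and a Frizzled signal cannot be assigned to one cell type.

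In wild-type preparations 6 of the 9 genes gave a signal above that of genes from other tissues, namely Fzd6, Fzd1, Fzd7, Fzd5, Fzd8 and Fzd2, and 3 did not, namely Fzd3, Fzd9 and Fzd10. The values table holds no detection calls, so the level was set from 50 measured genes of tissues outside the cerebellum, such as testis, pancreas, kidney and liver. Their brightest probe sets had a median of 3.47 in wild type, and their 95th percentile of 6.48 is called the off-tissue level. A gene counted as above it when its brightest probe set, the one with the highest mean over the 6 arrays, exceeded it on all 3 wild-type arrays, which held for 47.7% of all named genes. Probe sets differ in how strongly they bind, so the order below ranks signals and not transcript numbers.

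Fzd6, a receptor for tissue polarity such as the orientation of hairs, stood highest. It read 12.15, 11.96 and 12.08 in wild type, and its mean over the 6 arrays ranked at the 98.7th percentile of all probe sets. Fzd1 read 9.79, 9.70 and 9.58 in wild type and Fzd7 read 9.36, 9.27 and 8.65. By their brightest probe sets these 3 genes lay above even the brightest off-tissue gene, the sperm protamine Prm1, at 8.53 in wild type. Fzd5 (8.98, 9.30 and 7.91), Fzd8 (7.35, 7.24 and 7.57) and Fzd2 (7.14, 7.21 and 7.76) cleared the off-tissue level on each wild-type array but not the level of Prm1 on all 3. Among neighbours in this order, the wild-type values of Fzd1 and Fzd7 did not overlap, whereas those of Fzd7 and Fzd5 did. Fzd5 lay above Fzd8 on every wild-type array, and Fzd8 and Fzd2 overlapped. Of the other probe sets of these genes, only the second of Fzd6 had a wild-type mean above the off-tissue level, at 9.49. The second probe sets averaged 5.94 for Fzd1, 3.46 for Fzd7, 4.59 for Fzd5, 4.15 for Fzd8 and 3.93 for Fzd2 in wild type.

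The remaining genes were at the level of off-tissue probe sets. Fzd3 read 5.25, 5.21 and 6.41 in wild type with its brightest probe set, just under the off-tissue level on 1 array and well under it on the other 2. Fzd9 read 4.88, 4.84 and 4.75 there, and 13 of the 50 off-tissue genes were brighter. Fzd10 read 4.18, 3.48 and 4.23, with 20 off-tissue genes brighter. Signals of this kind do not show that the transcripts are absent. In Fz4-/- arrays none of these 3 genes passed the off-tissue level on all 3 arrays either.

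**Figure D1:**
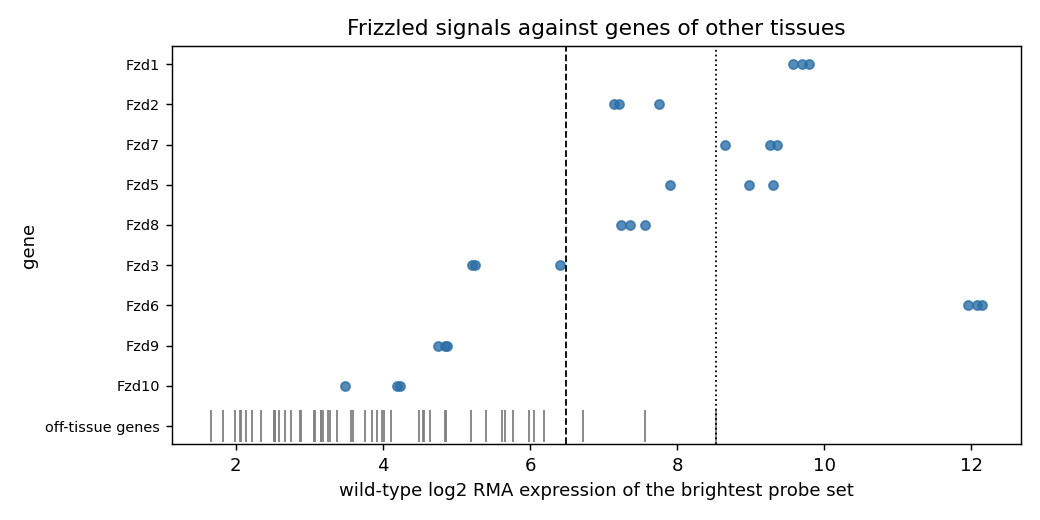
Wild-type log2 RMA expression (horizontal axis) of the brightest probe set of each Frizzled gene, with a point for each of the 3 wild-type arrays, above a row of ticks for the wild-type means of 50 off-tissue genes. The dashed line is the off-tissue level (6.48) and the dotted line the brightest off-tissue gene (8.53), and Fzd6 stands apart at 11.96 to 12.15.

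No Frizzled gene differed between the genotypes past the threshold. With limma over all probe sets, 0 of the 9 genes and 0 of the 23 probe sets reached an adjusted p of 0.05, where 0.0220% of all genes and 0.0111% of all probe sets did, and adjusted p = 1.00 for each of the 9 genes. At an unadjusted p under 0.05 there were 3 of 9, Fzd1, Fzd2 and Fzd8, where 4.60% of all genes had one. The median difference over the 9 genes was -0.05, beside 0.008 over all named genes, with 3 genes above 0 and 6 below, where 51.3% of all genes were above 0. The median size of the difference, regardless of sign, was 0.38 for the 9 genes and 0.17 for all genes, while the median SE was 0.25 for both. None of the 9 genes differed by a factor of 2 or more (log2 of 1) in either direction, where 2.11% of all genes did. For 7 of them, all but Fzd3 and Fzd5, the upper 95% bound of the difference stayed under log2 of 1, a share near the 79.8% of all genes. The lower bounds of Fzd1, Fzd2, Fzd5 and Fzd7, given below, went past a halving. These intervals come from the limma fit gene by gene and are not adjusted for the number of genes.

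**Figure D2:**
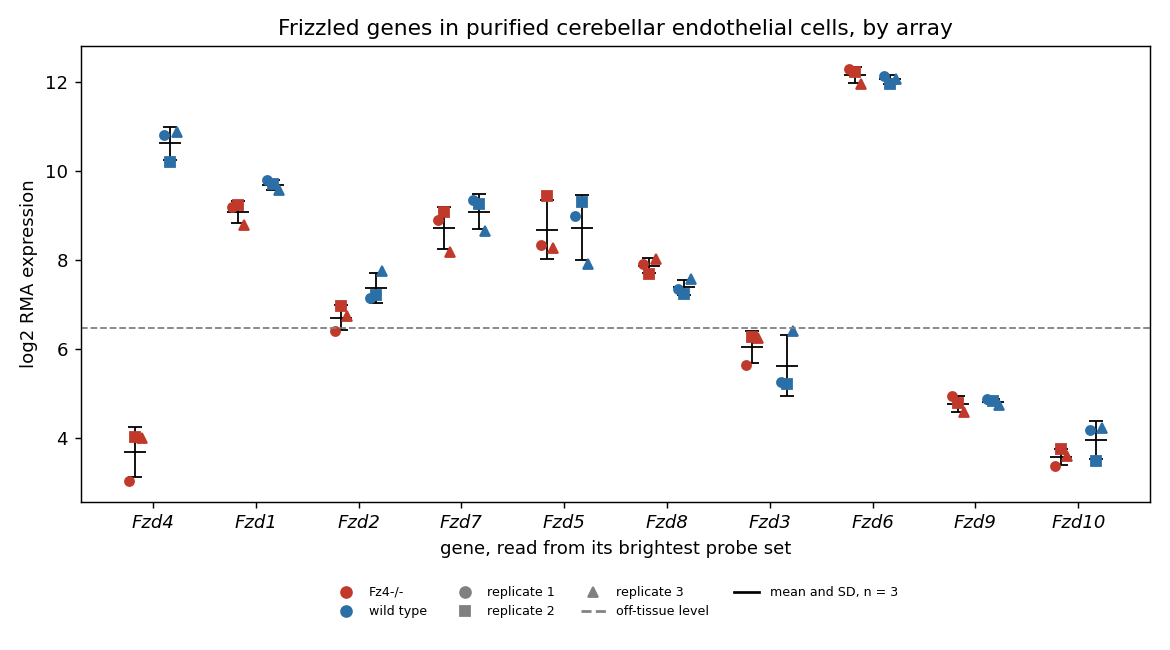
Log2 RMA expression (vertical axis) of Fzd4 and the 9 other Frizzled genes by array, with Fz4-/- arrays in red on the left of each pair and wild-type arrays in blue on the right, replicate numbers as symbols, and bars for mean and SD (n = 3). Fzd4 separates the genotypes at 3.04 to 4.03 in Fz4-/- against 10.20 to 10.88 in wild type, whereas the widest gap of group means among the others is -0.66 for Fzd2.

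Fzd1, Fzd2 and Fzd7, closely related receptors that act together in closing the palate and the heart septum of the mouse, all read lower in Fz4-/- arrays without passing the threshold. Fzd1 read 9.20, 9.24 and 8.79 in Fz4-/- replicates 1 to 3 against 9.79, 9.70 and 9.58 in wild type. Every Fz4-/- array lay below every wild-type array. The difference was -0.61 (SE 0.20, 95% interval -1.08 to -0.15, unadjusted p = 0.0175, limma adjusted p = 1.00), a ratio of 0.654. The second Fzd1 probe set, dimmer at 5.59 ± 0.38 in Fz4-/- and 5.94 ± 0.19 in wild type (SD, n = 3), pointed the same way at -0.35, with groups that overlapped.

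Fzd2 read 6.41, 6.97 and 6.75 in Fz4-/- arrays against 7.14, 7.21 and 7.76 in wild-type arrays, again without overlap. Its difference was -0.66 (SE 0.25, 95% interval -1.25 to -0.07, unadjusted p = 0.0332, limma adjusted p = 1.00). Fz4-/- replicate 1, at 6.41, read just under the off-tissue level of 6.48. In Fz4-/- arrays 5 of the 9 genes therefore passed it on all 3 arrays, where 47.7% of all named genes did, and the step from the 6 genes in wild type rests on this single value. The other 2 Fzd2 probe sets lay near the lower quartile of the arrays (3.46 to 3.64) and differed by -0.47 and -0.22.

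Fzd7 read 8.89, 9.09 and 8.19 in Fz4-/- arrays against 9.36, 9.27 and 8.65 in wild-type arrays. Here the groups overlapped, and both arrays numbered 3 were the lowest of their genotype. The difference was -0.37 (SE 0.31, 95% interval -1.11 to 0.37, limma adjusted p = 1.00), and it was -0.10 without Fz4-/- replicate 3, its lowest array. The second Fzd7 probe set was far dimmer, at 3.11 ± 0.06 in Fz4-/- and 3.46 ± 0.28 in wild type (SD, n = 3). It differed by -0.35 with overlapping groups. The labels number the replicates alike in both genotypes, and by number Fzd7 differed by -0.46, -0.18 and -0.46, Fzd1 by -0.59, -0.46 and -0.79, and Fzd2 by -0.73, -0.24 and -1.01. These 3 of the 9 genes were thus lower in all numbered pairs, where 15.7% of all genes were, and 1 gene, Fzd8, was higher in all of them, where 17.6% were. The groups of Fzd1, Fzd2 and Fzd8 did not overlap, so any pairing of the arrays would give each of them differences of the same sign. With the number as a block, the SE of Fzd7 was 0.15 and its limma adjusted p was 0.581. By groups without overlap, 2 of the 9 genes, Fzd1 and Fzd2, were lower, where 4.95% of all genes were, and 1, Fzd8, was higher, where 4.59% were.

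Promoter windows are shown for Fzd1 and Fzd7, the members of the related group Fzd1, Fzd2 and Fzd7 that had one. Neither difference passed the threshold, and a link between promoter letters and the differences was not tested. Of the 9 genes, 5 matched a window by symbol in the RefSeq table (build GRCm38.p6, 250 bases before to 50 after the gene start), Fzd1, Fzd5, Fzd7, Fzd9 and Fzd10. Capitals mark the letters CAAAG, the core that Tcf and Lef factors bind, on either strand (CTTTG where it lies on the other strand). The windows are chr5:4758167-4758466 on the minus strand for Fzd1 and chr1:59481897-59482196 on the plus strand for Fzd7.
Fzd1: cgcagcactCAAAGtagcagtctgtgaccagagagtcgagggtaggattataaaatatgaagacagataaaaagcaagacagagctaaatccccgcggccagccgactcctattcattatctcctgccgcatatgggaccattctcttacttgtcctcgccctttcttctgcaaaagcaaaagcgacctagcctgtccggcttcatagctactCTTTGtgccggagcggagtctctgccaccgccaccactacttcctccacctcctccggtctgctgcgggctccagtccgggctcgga
Fzd7: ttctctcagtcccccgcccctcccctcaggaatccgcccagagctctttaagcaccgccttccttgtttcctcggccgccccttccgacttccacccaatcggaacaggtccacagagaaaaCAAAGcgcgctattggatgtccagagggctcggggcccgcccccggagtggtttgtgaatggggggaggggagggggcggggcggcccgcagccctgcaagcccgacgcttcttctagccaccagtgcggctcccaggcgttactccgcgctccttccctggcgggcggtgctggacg
The core occurred 2 times in the Fzd1 window, once in that of Fzd7 and of Fzd10, and in neither that of Fzd5 nor that of Fzd9, while 53.9% of all 32851 windows of this length held it. The longer forms ATCAAAG and TTCAAAG, which contain the core, were in none of the 5 windows and in 3.73% and 5.14% of all windows. A match describes letters only and is not evidence of binding.

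Fzd8, which works with Fzd5 in the developing mouse eye, was the one gene whose Fz4-/- arrays all lay above the wild-type arrays. It read 7.92, 7.69 and 8.01 in Fz4-/- arrays against 7.35, 7.24 and 7.57 in wild-type arrays. The difference was 0.49 (SE 0.19, 95% interval 0.05 to 0.93, unadjusted p = 0.0348, limma adjusted p = 1.00), a ratio of 1.40 with an upper bound of 1.91. By replicate number it was 0.56, 0.46 and 0.45. Its second probe set, at 4.58 ± 0.31 in Fz4-/- and 4.15 ± 0.56 in wild type (SD, n = 3), differed by 0.43 with overlapping groups. In wild type the off-tissue genes Prm1 and Vil1 were brighter than Fzd8, as they were than Fzd2, so these signals are not shown to lie above every probe set without its transcript.

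Fzd5, which is needed for yolk sac vessels in mouse embryos, varied more between arrays of one genotype than between genotypes. It read 8.33, 9.45 and 8.28 in Fz4-/- arrays against 8.98, 9.30 and 7.91 in wild-type arrays, with full overlap. The difference was -0.05 (SE 0.46, 95% interval -1.14 to 1.05, limma adjusted p = 1.00), so a change of up to 2.08-fold higher lies inside the interval. With the replicate number as a block the SE was 0.24 and the interval -0.69 to 0.60. The second probe set, at 5.001 ± 0.481 in Fz4-/- and 4.59 ± 0.12 in wild type (SD, n = 3), read 0.41 higher in Fz4-/- arrays, again with overlap and without passing.

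Fzd6, the brightest of the 9 genes, had the narrowest interval among the 6 genes above the off-tissue level. It read 12.30, 12.23 and 11.95 in Fz4-/- arrays against 12.15, 11.96 and 12.08 in wild-type arrays, and the groups overlapped. The difference was 0.10 (SE 0.18, 95% interval -0.33 to 0.53, limma adjusted p = 1.00), so a rise beyond 1.44-fold lies outside the interval. The second Fzd6 probe set was also bright, at 9.84 ± 1.15 in Fz4-/- and 9.49 ± 0.49 in wild type (SD, n = 3). It differed by 0.35 (95% interval -1.02 to 1.72), with 8.51 on Fz4-/- replicate 3 as its lowest value. The dimmest, at the lower quartile of the arrays, differed by 0.06.

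Fzd3, which guides axons in the developing mouse brain, had 6 probe sets that did not point one way. The brightest read 5.64, 6.28 and 6.25 in Fz4-/- arrays against 5.25, 5.21 and 6.41 in wild-type arrays, a difference of 0.43 (SE 0.38, limma adjusted p = 1.00). The other 5 differed by -0.42 to -0.04. All 6 had wild-type means below the off-tissue level and overlapping groups, so neither direction is shown for Fzd3. Its upper bound of 2.502-fold is the highest among the brightest probe sets of the 9 genes.

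Fzd9, which is known for roles in bone formation and B cell development in mice, read 4.95, 4.78 and 4.58 in Fz4-/- arrays against 4.88, 4.84 and 4.75 in wild-type arrays, a difference of -0.05 (SE 0.18). Fzd10, a receptor expressed in the embryonic neural tube, read 3.38, 3.76 and 3.60 in Fz4-/- arrays against 4.18, 3.48 and 4.23 in wild-type arrays. Its probe sets differed by -0.38 and -0.35. Both genes had overlapping groups and lay under the off-tissue level on every array of both genotypes.

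**Figure D3:**
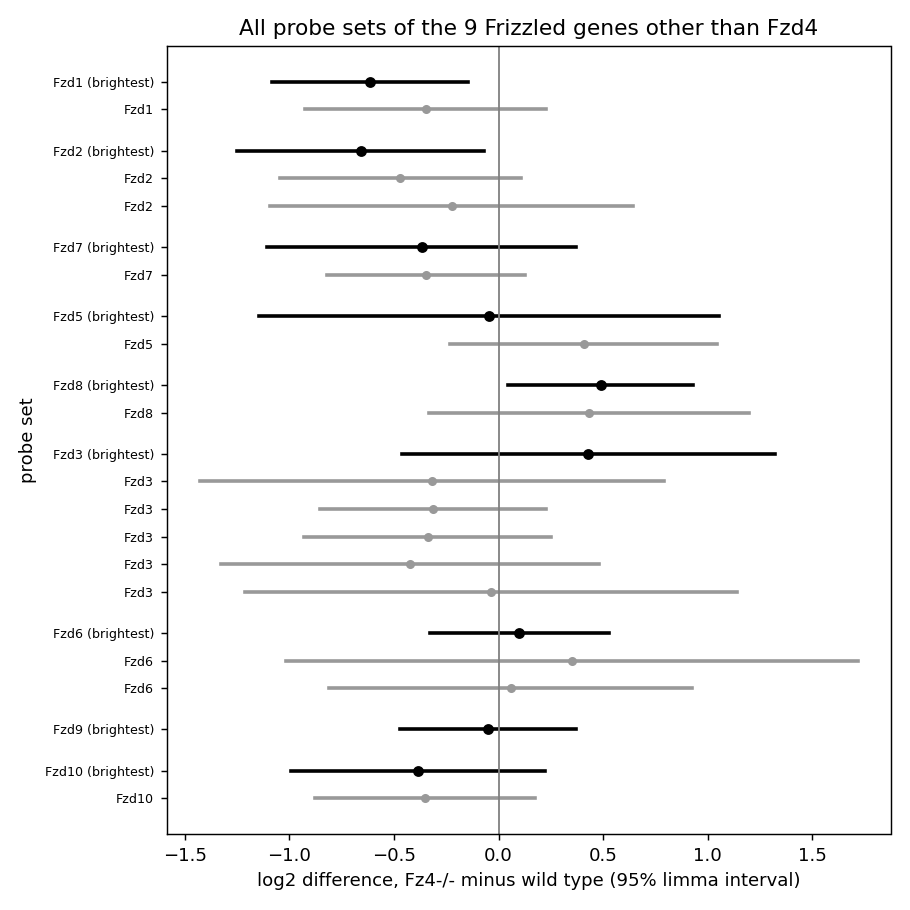
Log2 difference, Fz4-/- minus wild type (horizontal axis), with its 95% limma interval for each of the 23 probe sets of the 9 genes, the brightest of each gene in black. Every probe set of Fzd1, Fzd2, Fzd7, Fzd9 and Fzd10 lies left of 0 and each of Fzd8 and Fzd6 right of it, and the intervals of the brightest probe sets leave out 0 for Fzd1, Fzd2 and Fzd8 alone.

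The means of some marker lists also separated the genotypes. The mean of the 11 measured choroid plexus epithelium markers was 4.72, 5.06 and 4.92 in Fz4-/- arrays against 5.83, 5.72 and 8.07 in wild-type arrays. All 11 markers were lower in the Fz4-/- mean, and 2 of the 11 lay above the off-tissue level in wild type. This list separated the genotypes in the same direction as Fzd1 and Fzd2, and wild-type replicate 3, its highest array, was the highest wild-type array for Fzd2 but the lowest for Fzd1. The mean of the 7 platelet markers lay at 5.38 to 5.70 in Fz4-/- arrays against 5.98 to 6.14 in wild-type arrays, also without overlap. In wild type 2 of the 7 lay above the off-tissue level, and 6 of the 7 were lower in the Fz4-/- mean. The mean of the endothelial markers did not overlap in the other direction, and each Fz4-/- array lay 0.12 to 0.24 above its wild-type value, as Fzd8 lay 0.31 to 0.63 above its own. On Fz4-/- replicate 3, the lowest Fz4-/- array for the endothelial mean, Fzd8 was highest. Of the 14 endothelial markers 10 were higher and 4 lower in the Fz4-/- mean, with a median difference of 0.07. The part of these cells in the Frizzled values was not tested.

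Fz4-/- replicate 1 stood apart in markers of supporting and immune cells. Against the wild-type mean it lay at -2.85 for microglia and macrophages, -2.40 for fibroblasts and meninges, -1.32 for pericytes with smooth muscle, and -1.74 for astrocytes with Bergmann glia. The other 2 Fz4-/- arrays lay between -0.59 and 0.46 for these 4 lists. Fzd2 was lowest on this array, whereas Fzd1 and Fzd7 were lowest on Fz4-/- replicate 3. Without Fz4-/- replicate 1 the differences were -0.68 for Fzd1, -0.51 for Fzd2, -0.45 for Fzd7 and 0.47 for Fzd8, none past the threshold. Without wild-type replicate 3, where choroid plexus markers were highest, they were -0.67, -0.47, -0.59 and 0.58, in the same order. Without Fz4-/- replicate 3 they were -0.47, -0.68, -0.10 and 0.42.

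**Figure D4:**
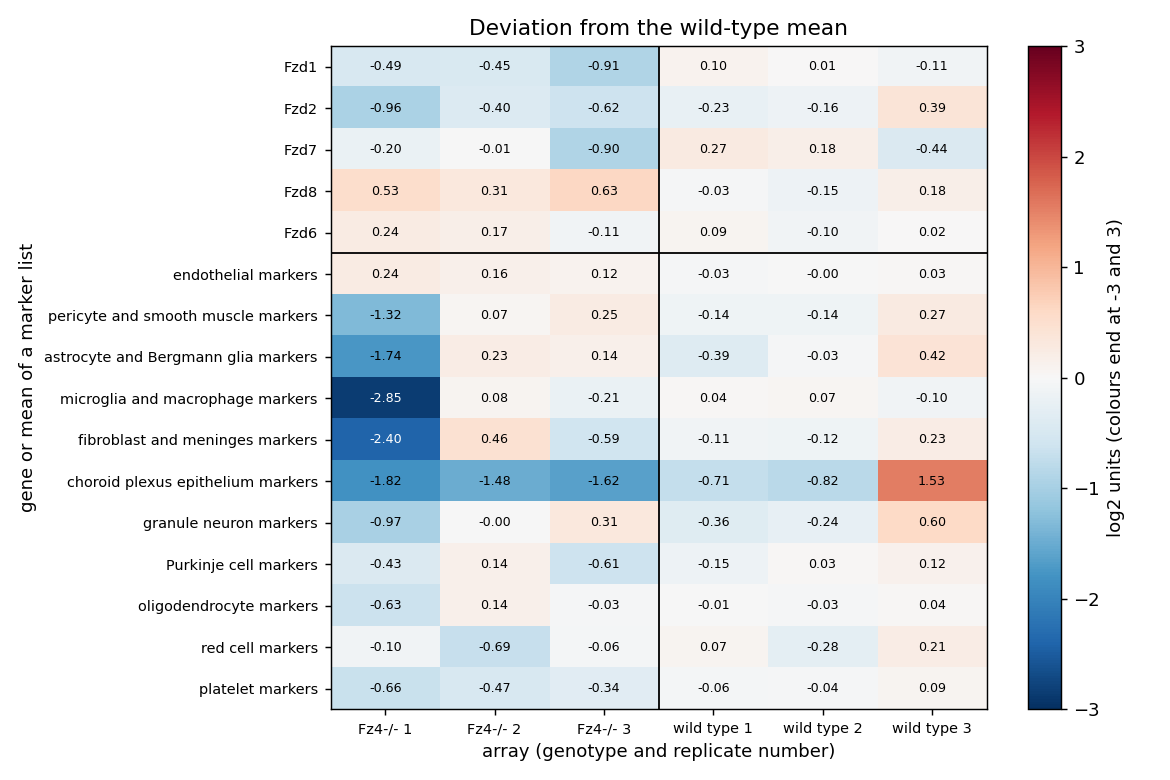
Deviation of each array (columns, Fz4-/- on the left) from the wild-type mean in log2 units, for 5 Frizzled genes and for the mean of each marker list (rows). The choroid plexus row is below the lowest wild-type value on all 3 Fz4-/- arrays (-1.82, -1.48 and -1.62), and the microglia row is low on Fz4-/- replicate 1 alone (-2.85).

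The other genes of the receptor step, taken from lists fixed with earlier results of these data known, also gave 0 members past an adjusted p of 0.05 in limma in either direction. Of 13 measured co-receptors and Frizzled partners, 10 lay above the off-tissue level in wild type, where 47.7% of all named genes did. An unadjusted p under 0.05 was found for 2, Ror1, higher, and Ror2, lower, where 4.60% of all genes had one. Ror2, a receptor tyrosine kinase for Wnt5a, had the lowest p and differed by -0.80 (SE 0.30, limma adjusted p = 1.00). Its groups overlapped, and it lay below the off-tissue level on every array. The receptor-proximal list of Dishevelled proteins, beta-catenin and its kinases had 19 of 22 members above the off-tissue level and 0 at an unadjusted p under 0.05. Its lowest p was that of Axin1, a scaffold of the beta-catenin destruction complex, at 0.27 (SE 0.17, limma adjusted p = 1.00). Among the 12 planar polarity partners, which work with Fzd3 and Fzd6, 8 lay above the off-tissue level in wild type. The lowest p belonged to Celsr1, an atypical cadherin and the 1 member with an unadjusted p under 0.05. It read 7.56, 6.27 and 6.03 in Fz4-/- arrays against 4.90, 5.26 and 5.75 in wild-type arrays. The Fz4-/- arrays were all higher, and the difference was 1.32 (SE 0.44, limma adjusted p = 1.00). Every value of Celsr1 but 7.56 lay below the off-tissue level.

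Of the 10 genes that turn Frizzled receptors over, 5 lay above the off-tissue level in wild type, a share near the 47.7% of all named genes. The lowest p was that of Lgr5, an R-spondin receptor, with a difference of 1.05 (SE 0.23, limma adjusted p = 0.684) from a level of 5.08 ± 0.30 in Fz4-/- and 4.03 ± 0.22 in wild type (SD, n = 3), both below it. Of the 12 secreted Wnt binders 3 lay above it, and Notum, an enzyme that inactivates Wnt proteins, differed by -1.78 (SE 0.44, limma adjusted p = 0.811). Of the 24 Frizzled ligands and R-spondins 2 did, and the lowest p belonged to Wnt16, which read 2.76 ± 0.14 in Fz4-/- and 3.31 ± 0.10 in wild type. At an unadjusted p under 0.05 these 24 had 1 member higher and 2 lower, where 4.60% of all genes had such a p. The median differences of the 6 lists lay between -0.22 and 0.11, against 0.008 for all genes.

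For Fzd1 and Fzd2, the 2 genes above the off-tissue level with the lowest p, the most similar profiles were found by the root mean square distance between values centred on their own mean over the 6 arrays. Among 10926 genes above the median level, those nearest to Fzd1 were Psat1, an enzyme of serine synthesis, at 0.083, Nudt4 at 0.089 and Plpp6 at 0.097. Nearest to Fzd2 were Snx29 at 0.088, the kinase Src at 0.117 and the matrix crosslinking enzyme Loxl1 at 0.127. The median distance of all candidates was 0.489 from Fzd1 and 0.525 from Fzd2. A gene with the same value on all 6 arrays would lie nearer than that, at 0.346 from Fzd1 and 0.416 from Fzd2. With only 6 arrays many genes come close to any profile.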

How the data were processed

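Total RNA from bead-captured cells was extracted with Trizol and RNeasy and biotin-labelled, per the labels' protocols. The values are log2 expression from RMA, which corrects background, normalizes arrays to each other and summarises probe sets, per the submitters' processing notes. The implementation of RMA is not stated in the sources used here. Of 45101 deposited probe sets, 64 controls were left out. The platform annotation gave 34945 probe sets 1 symbol, 932 several and 9160 none, and 34741 matched a RefSeq gene (GRCm38.p6). A gene was read from its brightest probe set.

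The genotypes were set against each other in R 4.3.3 with limma 3.58.1 (functions lmFit and eBayes, 6 arrays, no covariate, two-sided) and Benjamini-Hochberg adjustment over 45037 probe sets at 0.05. An exact permutation of 3 against 3 cannot go below 0.1. The members, lists and tests were chosen with earlier results of these data known. All 10 Frizzled genes were named, with the lowest-p gene of each pathway list and the 3 profiles nearest to Fzd1 and to Fzd2. Depth does not apply to arrays, and at most 0.351% of probe sets had identical values in any pair of arrays.

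The labels number replicates 1 to 3 in both genotypes. Deviations from group means correlated at 0.244, 0.303 and 0.574 for the same numbers, above the 0.1 set for pairing, so the numbers were also fitted as a block. Unlike numbers passed too, at 0.262 for Fz4-/- replicate 2 with wild-type replicate 1 and 0.124 for Fz4-/- replicate 1 with wild-type replicate 2. Arrays numbered 3 correlated at -0.463 to -0.249 with the arrays numbered 1 and 2 of the other genotype. These values do not single out the replicate number as the pairing. The fit was also run on 5 simulated data sets of 45037 probe sets with 200 changed. There limma recovered 3.28% of probe sets that differed by log2 1, 78.5% of those by log2 2 and 98.5% of those by log2 4. The deposited arrays gave only 5 calls, and the Fzd4 probe set that differed by -4.95 missed the threshold (limma adjusted p = 0.0769). The simulated rates may therefore not hold for the deposited arrays. Alternatives were quantile and median normalization, a level filter, a robust variance trend, array weights, averaged probe sets per gene, dropping _x_at and _s_at probe sets, the block, each array left out, and other detection levels. Leaving out both arrays numbered 3 and a batch term for them were added after seeing the data.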

Additional observations from a re-analysis of the deposited data

How the results depend on the processing

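No Frizzled gene passed an adjusted p of 0.05 in limma under any of the 16 alternatives of the fit, the lowest being adjusted p = 0.400 for Fzd1 with a batch term for the arrays numbered 3. Leaving out 1 array gave 0 Frizzled genes each time. Fzd1 kept a negative difference (-0.70 to -0.47), as did Fzd2 (-0.79 to -0.45), Fzd7 (-0.59 to -0.10) and Fzd10 (-0.63 to -0.25, in 15 alternatives, since the level filter left out Fzd9 and Fzd10), and Fzd8 (0.41 to 0.58) and Fzd6 (0.03 to 0.21) a positive one. Fzd3 turned to -0.17 and Fzd5 to 0.18 when probe sets of a gene were averaged. Fzd9 turned to 0.0039 with quantile normalization and to 0.0077 without both arrays numbered 3. With 1 array left out Fzd5 ranged from -0.46 to 0.24 and Fzd9 from -0.14 to 0.043, so neither has a direction. The cause of these turns was not tested. The median of the 9 genes ranged from -0.42 without Fz4-/- replicate 2 to 0.043 without Fz4-/- replicate 3. With the replicate block the median was -0.05, and the block changed no Frizzled call.

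The number of Frizzled genes above the off-tissue level, 6, was 3 when the brightest off-tissue gene set the level (Fzd1, Fzd6 and Fzd7) and 3 with averaged probe sets (Fzd1, Fzd5 and Fzd6). It stayed 6 with the array median, a linear level of 100 or any wild-type array left out. Over all probe sets, the 5 calls became 21 with array weights, 11 with averaged probe sets (over genes), 2 with the batch term, 0 with the replicate block, 0 without both arrays numbered 3 and 0 to 2 with 1 array left out. With 3 arrays a group, even the Fzd4 probe set that differed by -4.95 missed the threshold (limma adjusted p = 0.0769). Recovery of changes under 2-fold was not tested. The absence of calls therefore does not show that the Frizzled genes did not differ.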
